A study of Mus musculus with 4 samples.

Results

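The 10 chemokine ligand genes Ccl2, Ccl5, Ccl7, Ccl17, Ccl22, Cxcl1, Cxcl9, Cxcl10, Cxcl12 and Cxcl16 were followed through every cell class of mouse forebrain tumors, to find which cells held their RNA and how the mice harvested at postnatal day 43 (P43) and day 70 (P70) differed. They were taken by name, as 10 of the 40 chemokine ligand genes among the 21861 features counted. The mice of both ages shared the genotype hGFAP-cre::Trp53Fl/Fl::lsl-MYCN. Here a Cre recombinase under the human GFAP promoter, active in neural precursors, deletes Trp53 and switches on human MYCN together with firefly luciferase, so the vessel and immune cells around the tumor are cells of the host. Mouse 4 and mouse 5 made up the P43 group and mouse 6 and mouse 7 the P70 group, without any drug treatment named and with 1 droplet-based 3′ library per mouse. No strain, batch or harvest date is named in the labels, so age and library preparation cannot be told apart. Sex was not used, because Y-linked genes went against the labelled sex of both P43 mice (149 CPM in mouse 4, labelled female, and 0.37 CPM in mouse 5, labelled male).

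Chemokines are small secreted proteins that steer leukocytes along gradients by binding G-protein-coupled receptors. Ccl2 and Ccl7 act through Ccr2 on monocytes, Cxcl1 through Cxcr2 on neutrophils, Ccl5 through Ccr1 among others, Cxcl9 and Cxcl10 through Cxcr3 on activated T and NK cells, Ccl17 and Ccl22 through Ccr4, Cxcl16 through Cxcr6, and Cxcl12 through Cxcr4, while Ackr3 removes Cxcl12 from the extracellular space. Several of them are classical targets of NF-kappaB or interferon signaling, whereas Cxcl12 is a constitutive, homeostatic ligand of brain vessels.

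Several ligand genes lie next to each other in the genome (GRCm38). On chromosome 11, Ccl2 (82035571 to 82037453, plus strand) and Ccl7 (82045712 to 82047525, plus strand) are 8.26 kb apart, and Ccl5 (83525778 to 83530518, minus strand) and Cxcl16 (70453983 to 70459984, minus strand) lie farther away. On chromosome 5, Cxcl9 (92321347 to 92328079, minus strand) and Cxcl10 (92346638 to 92348889, minus strand) are 18.6 kb apart, with Cxcl1 (90891241 to 90893115, plus strand) at a distance. Ccl22 (94745590 to 94751699, plus strand) and Ccl17 (94810453 to 94812036, plus strand) share chromosome 8 and are 58.8 kb apart. Cxcl12 stands alone on chromosome 6 (117168535 to 117181367, plus strand).

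Promoter windows of 300 bases, from 250 bases before the annotated RefSeq start on GRCm38.p6, were at hand for 6 of the 10 genes. The windows of Cxcl1 and Cxcl10 are shown because both genes were higher at P70 in mural cells, and that of Cxcl12 because it was lower there. Capitals mark matches to the motifs GGGANNTTCC (NF-kappaB) and GAAANNGAAA (interferon-stimulated response element), searched on both strands.
Cxcl1, chr5:90890995-90891294, plus strand: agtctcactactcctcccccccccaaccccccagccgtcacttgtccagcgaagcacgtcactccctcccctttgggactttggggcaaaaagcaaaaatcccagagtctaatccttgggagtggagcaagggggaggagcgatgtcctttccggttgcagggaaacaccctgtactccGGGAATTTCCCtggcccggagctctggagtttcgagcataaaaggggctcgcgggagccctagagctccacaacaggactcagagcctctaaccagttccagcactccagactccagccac
Cxcl10, chr5:92348840-92349139, minus strand: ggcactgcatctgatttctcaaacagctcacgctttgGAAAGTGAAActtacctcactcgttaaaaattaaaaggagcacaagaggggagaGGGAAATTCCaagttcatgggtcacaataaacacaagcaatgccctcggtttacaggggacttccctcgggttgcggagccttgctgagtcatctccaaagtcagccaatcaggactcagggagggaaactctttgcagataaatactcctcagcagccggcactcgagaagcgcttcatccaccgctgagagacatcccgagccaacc
Cxcl12, chr6:117168285-117168584, plus strand: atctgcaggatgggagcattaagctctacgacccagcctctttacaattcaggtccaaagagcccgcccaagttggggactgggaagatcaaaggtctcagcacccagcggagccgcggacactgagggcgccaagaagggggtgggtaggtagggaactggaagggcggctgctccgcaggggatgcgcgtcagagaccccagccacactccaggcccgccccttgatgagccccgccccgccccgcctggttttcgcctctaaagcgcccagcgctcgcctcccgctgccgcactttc
The Cxcl1 window holds the NF-kappaB motif at -71 and, shifted by a base on the other strand, at -70. In the Cxcl10 window the interferon motif stands at -213 and the NF-kappaB motif at -159. The Cxcl12 window has no match to these or to the STAT motif TTCNNNGAA. Of the windows not shown, those of Cxcl9, which was called higher at P70 in EC, and of Ccl22 have no match either. The Ccl17 window holds the STAT motif at -99, and Ccl17 was not called in any class. Whether matches go with the direction of change was not tested. Of 32851 mouse promoter windows of the same length, 1.47% hold the NF-kappaB motif, 3.44% the interferon motif and 8.30% the STAT motif. A match describes letters and is not a measured binding site.

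Depth ranged from 13106786 to 40621958 unique molecular identifiers (UMIs, each tagging 1 captured mRNA) per library, with 15044263 in mouse 4 and 18698291 in mouse 6. After filtering, mice 4 to 7 kept 3319, 1456, 2731 and 3469 cells, with median depths of 1419, 4200, 4587 and 10449 UMIs. Cell classes were built from clusters that were computed without any chemokine ligand gene, so the ligands had no part in naming their own sources. A level in CPM is the number of a gene's UMIs for every 1000000 UMIs that a mouse's cells of that class held together. Endothelial cells (EC; 451, 499, 296 and 36 cells in mice 4 to 7) carried 19128, 19799, 13423 and 14054 CPM of their 10 marker genes. Mural cells (290, 265, 242 and 37 cells) carried 31033, 35445, 23182 and 19785 CPM of theirs. Among finer clusters of vessel cells, pericytes led by G0s2 numbered 126, 141, 50 and 19 cells. Those led by Serpini1 numbered 51, 73, 47 and 12. Cycling cells led by H1f5 and Mki67 numbered 2, 1, 73 and 2, so the mix of Mural cells differed between the mice. Its part in the Mural ligand levels was not tested. Myeloid cells numbered 55, 64, 803 and 144, dendritic cells (DC) 116, 83, 501 and 70, and T and NK cells (T/NK) 67, 156, 110 and 22. The oligodendrocyte-like cells (OL-like; 2253, 296, 420 and 2214 cells), which joined the main tumor population with mature oligodendrocytes, held 771, 2716, 3113 and 1744 CPM of the MYCN and luciferase reporter. The vessel classes of mouse 7 were the smallest, with 71581 UMIs in EC and 93404 in Mural cells. Between any pair of libraries, 1 to 3 cell barcodes were shared.

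Each ligand had a limited set of sources. Averaged over the 4 mice, DC held 83.6 ± 10.1% of the Ccl17 UMIs (SD, n = 4 mice), 86.4 ± 14.6% of the Ccl22 UMIs and 60.2 ± 13.8% of the Cxcl9 UMIs. Myeloid cells held 70.0 ± 15.6% of Ccl7, 55.5 ± 12.5% of Cxcl16, 41.7 ± 13.05% of Cxcl10 and 36.8 ± 23.3% of Ccl2. EC held 62.0 ± 33.8% of Cxcl12, and Mural cells held 45.4 ± 29.97% of Cxcl1. T/NK cells held 36.6 ± 34.3% of Ccl5. Cxcl12, Cxcl1, Ccl5 and Ccl2, whose SD is large, had a different leading source in different mice, which is described for each gene. The leading source of Cxcl10 changed too. DC gave 63.3% and 55.3% of its UMIs in mice 4 and 5, and Myeloid cells 59.9% and 42.4% in mice 6 and 7. For Cxcl9, Myeloid cells led in mouse 6, with 50.8% against 43.2% in DC. For Cxcl16, DC led in mouse 5, with 49.7% against 46.0% in Myeloid cells.

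**Figure D1:**
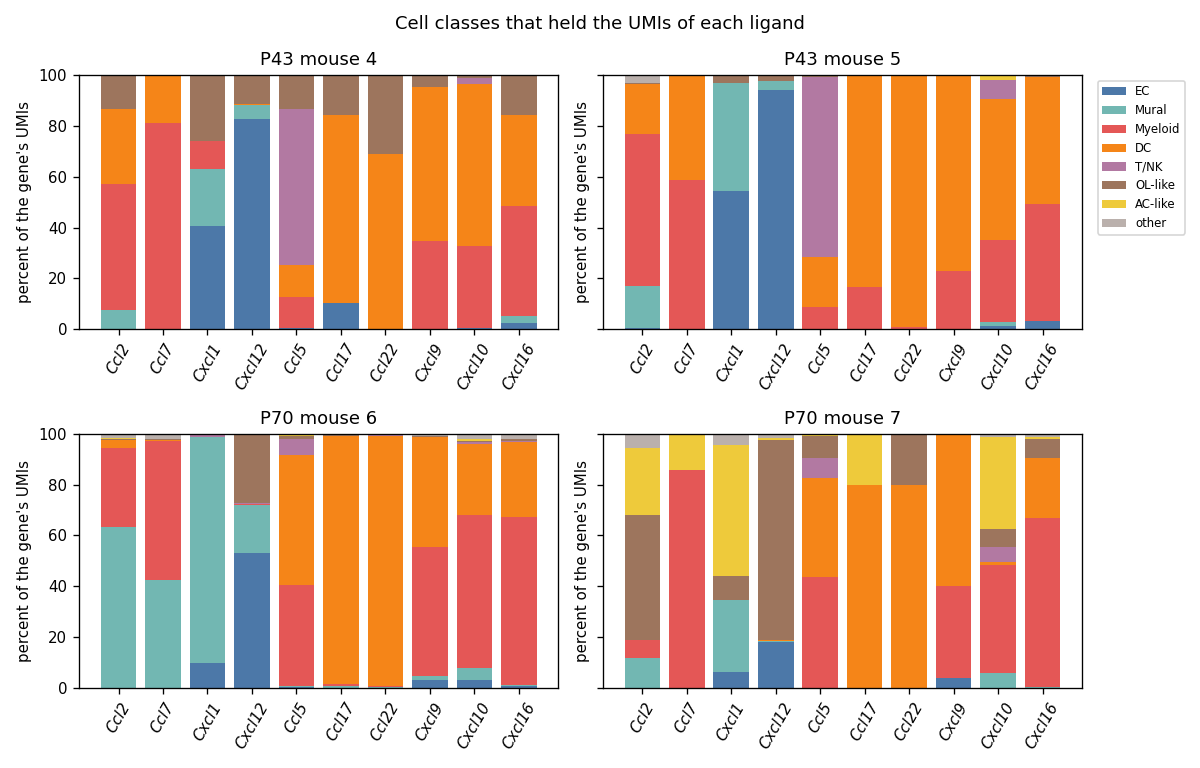
Percent of each ligand's UMIs (y axis) that lay in each cell class, with 1 panel per mouse and 1 bar per gene, over all kept cells (EC endothelial, DC dendritic, T/NK T and NK, OL-like oligodendrocyte-like, AC-like astrocyte-like tumor cells). Cxcl12 was mostly endothelial in mice 4 and 5 (82.7% and 93.9%) but mostly OL-like in mouse 7 (78.7%). T/NK cells held most Ccl5 UMIs in mice 4 and 5 (61.3% and 71.0%). DC held the largest part in mouse 6 (51.2%) and Myeloid cells in mouse 7 (43.7%). A share depends on the number of cells kept per class as well as on their level.

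**Figure D2:**
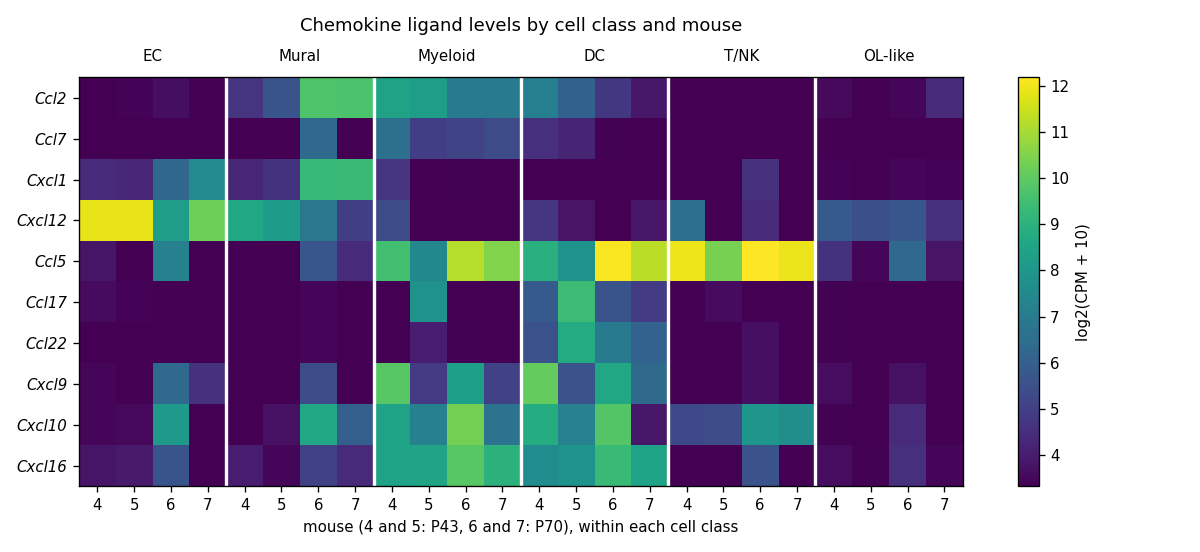
Level of each ligand as log2(CPM + 10) (color) in the 6 classes with at least 20 cells in every mouse, with 1 column per mouse within each class. Cxcl12 was highest in EC, Ccl17 and Ccl22 were held mainly by DC, apart from 103 Ccl17 UMIs in 2 Myeloid cells of mouse 5, and Cxcl16 was shared by Myeloid cells and DC.

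Ccl2, the main monocyte attractant, had different leading cells at each age. In Mural cells it was 15.3 CPM in mouse 4 (10 UMIs), 39.0 CPM in mouse 5 (38 UMIs), 848 CPM in mouse 6 (1026 UMIs) and 814 CPM in mouse 7 (76 UMIs). Both P70 mice lay far above both P43 mice, although 1 cell gave 46.1% of the UMIs of mouse 7. The log2 change from P43 to P70 was 5.06 ± 0.30 (SE, n = 2 mice per age; edgeR quasi-likelihood test on UMIs summed per mouse, Benjamini-Hochberg adjusted p = 2.2e-06). The SE of this and the later age changes was computed from the log2 change and the edgeR test statistic. It is not a spread between mice. Among all 8622 genes tested in Mural cells, 10.7% were higher at P70 and 7.78% lower. With each cell thinned to 1000 UMIs, 18.2% (95% exact binomial interval 12.7 to 24.9%) of Mural cells of mouse 6 and 33.3% (15.6 to 55.3%) of mouse 7 had a Ccl2 UMI, against 0.971% (0.118 to 3.46%) and 1.63% (0.447 to 4.13%) in mice 4 and 5. Without thinning the shares were 31.4% and 27.0% at P70 and 0.690% and 4.91% at P43, at median depths of 1711, 1314, 2214.5 and 3580 UMIs in mice 6, 7, 4 and 5. OL-like cells were used as a reference for these shares, but whether their ligand UMIs are free RNA was not tested. In mouse 7, 1 OL-like cell held 55 of their 311 Ccl2 UMIs. At most 0.861% of thinned OL-like cells had a Ccl2 UMI, at a median depth of 11825.5 UMIs. All intervals cover counting error only.

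Finer clusters of the vessel cells placed the rise in pericytes of both kinds. In the pericytes led by G0s2 and Slc6a20a, Ccl2 was at 0, 12.99, 1559 and 591 CPM in mice 4 to 7, and in those led by Serpini1 and Rgs5 at 0, 93.0, 562 and 1362 CPM. Fibroblasts (Dcn and Igfbp2) of mouse 6 reached 1076 CPM, and the cycling cells led by H1f5 and Mki67, 73 of 78 of them from mouse 6, reached 408 CPM there. In mouse 4, all 10 Ccl2 UMIs of vessel cells came from 2 cells of that cycling cluster. EC held at most 1.42% Ccl2-positive cells at 1000 UMIs.

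Myeloid cells showed the opposite order of the mice. Their Ccl2 measured 336 CPM in mouse 4 (66 UMIs), 295 CPM in mouse 5 (137 UMIs), 112 CPM in mouse 6 (499 UMIs) and 115 CPM in mouse 7 (44 UMIs). The groups did not overlap, but the log2 change of -1.40 ± 0.28 did not pass the adjusted limit of 0.05 (edgeR, adjusted p = 0.10). Few genes passed in this class, 0.131% of 5345 higher and 0.0935% lower. In DC, Ccl2 was at 130 CPM (39 UMIs), 58.1 CPM (45 UMIs), 17.1 CPM (52 UMIs) and 4.94 CPM (1 UMI) in mice 4 to 7 and was lower at P70 by a log2 change of -2.54 ± 0.49 (edgeR, adjusted p = 0.038), a call that 6 of 10 alternative settings did not keep. Ccl2 entered the edgeR test in DC only through the P43 mice, so a call could only be lower. Of 6097 genes tested in DC, 0.787% were higher and 0.836% lower. Within the Myeloid cells, lipid-associated macrophages (Apoe and C1qc) went from 775 and 231 CPM at P43 to 58.0 and 48.7 CPM at P70, and the cells led by Retnla and Ear2 from 413 and 342 CPM to 29.9 and 22.8 CPM. Monocytes (Vcan, with the interferon gene Rsad2) were at 336, 390, 303 and 516 CPM. These finer values are descriptions without a test.

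By library, 49.6% and 59.8% of all Ccl2 UMIs at P43 lay in Myeloid cells. In mouse 6, 63.3% lay in Mural cells. In mouse 7, 49.0% came from OL-like cells, at a level of only 10.96 CPM (311 UMIs in 100 of 2214 cells), and 26.1% from the astrocyte-like tumor cells (AC-like), at 124 CPM (166 UMIs in 28 of 192 cells). The receptor gene Ccr2 was highest in Myeloid cells, with 809, 1131, 426 and 376 CPM, and lay at 575, 551, 193 and 109 CPM in DC, where it was lower at P70 (log2 change -1.83, edgeR, adjusted p = 0.022). Its level in Myeloid cells did not pass the limit.

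Ccl7, the close neighbor of Ccl2 and a second Ccr2 ligand, was rarer. Myeloid cells held 86.5 CPM in mouse 4 (17 UMIs), 21.5 CPM in mouse 5 (10 UMIs), 24.9 CPM in mouse 6 (111 UMIs) and 31.4 CPM in mouse 7 (12 UMIs, all in 1 cell). The groups overlapped, with a log2 change of -0.72 ± 0.61 (edgeR, adjusted p = 0.76). In Mural cells Ccl7 was found in mouse 6 alone, at 71.1 CPM (86 UMIs in 17 cells), 15 of which also had a Ccl2 UMI. In Myeloid cells all 3 Ccl7-positive cells of mouse 4, all 7 of mouse 5 and 20 of 30 of mouse 6 also had a Ccl2 UMI, and cells with both were deeper than cells with neither in these 3 mice (medians of 6843, 9186 and 5903 against 2908, 4994 and 5236 UMIs).

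Cxcl1, a neutrophil attractant, was a vessel gene. Mural cells held it at a level of 9.16 CPM in mouse 4 (6 UMIs), 14.4 CPM in mouse 5 (14 UMIs), 606 CPM in mouse 6 (734 UMIs) and 621 CPM in mouse 7 (58 UMIs). The P70 mice again lay far above the P43 mice and close to each other, with a log2 change of 5.84 ± 0.27 (edgeR, adjusted p = 6.9e-07). At 1000 UMIs, 26.5% (20.01 to 33.8%) and 33.3% (15.6 to 55.3%) of Mural cells had a Cxcl1 UMI in mice 6 and 7, against 0.971% and 2.04% in mice 4 and 5 and at most 0.759% of OL-like cells. Without thinning the shares were 31.0%, 37.8%, 1.03% and 3.77%.

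EC held Cxcl1 at a lower level than Mural cells in 3 of 4 mice, all but mouse 4, with 11.1 CPM in mouse 4 (11 UMIs), 9.17 CPM in mouse 5 (18 UMIs), 68.7 CPM in mouse 6 (83 UMIs) and 182 CPM in mouse 7 (13 UMIs). The groups did not overlap here either, and the log2 change was 3.18 ± 0.39 (edgeR, adjusted p = 3.1e-05), where 6.21% of the 8853 genes tested in EC were higher at P70 and 3.68% lower. The rise was steeper in Mural cells, by 2.68 ± 0.51 on the log2 scale (edgeR interaction test with the mouse as a block, adjusted p = 6.2e-06, where 10.1% of 10346 genes differed). Without mouse 6 this difference was 1.57 and did not pass the limit (edgeR, adjusted p = 0.40).

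In the pericytes led by G0s2, Cxcl1 was at 2.84, 12.99, 1199 and 974 CPM in mice 4 to 7, and in those led by Serpini1 at 11.5, 15.5, 416 and 605 CPM. In mouse 6, 45 Mural cells had UMIs of both Ccl2 and Cxcl1, 31 of Ccl2 alone, 30 of Cxcl1 alone and 136 of neither. The doubly positive cells had a median of 8800 UMIs and the doubly negative ones 1206, so depth moves with this overlap and its part was not tested. AC-like cells of mouse 7 were a further source, with 78.5 CPM (105 UMIs in 39 cells) and 51.5% of that library's Cxcl1. Mural cells gave 88.5% of the Cxcl1 UMIs in mouse 6 and 28.4% in mouse 7. In mice 4 and 5 they gave 22.2% and 42.4%, less than EC with 40.7% and 54.5%. Myeloid cells, DC and T/NK cells held at most 5 UMIs each in any mouse. Neutrophils, which carry the receptor gene Cxcr2 (236 CPM, 121 UMIs in mouse 6), numbered 1, 8, 98 and 4 cells.

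Cxcl12 moved the other way. EC held it at a level of 3775 CPM in mouse 4 (3741 UMIs), 3808 CPM in mouse 5 (7475 UMIs), 297 CPM in mouse 6 (359 UMIs) and 1201 CPM in mouse 7 (86 UMIs). Both P70 mice lay below both P43 mice, with mouse 7 between them and mouse 6. The log2 change was -2.57 ± 0.40 (edgeR, adjusted p = 3.5e-04; DESeq2, adjusted p = 0.087). At 1000 UMIs, 70.4% (64.5 to 75.8%) and 77.2% (73.1 to 80.9%) of EC had a Cxcl12 UMI at P43, against 16.0% (11.4 to 21.7%) and 42.9% (21.8 to 66.0%) at P70. OL-like cells had one in 6.43%, 3.51%, 5.57% and 1.18%. Unthinned shares in EC were 69.2%, 86.4%, 26.4% and 61.1%. Markers of other cells in the EC sums moved with age too. The 6 erythroid markers summed to 2435, 2154, 43.0 and 0 CPM in mice 4 to 7 and the 8 markers of mature oligodendrocytes to 2020.4, 965, 521 and 824 CPM, and the 10 EC markers to 19128, 19799, 13423 and 14054 CPM. Their part in the EC changes was not tested.

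Finer clusters of EC showed lower Cxcl12 in mouse 6 throughout, but not in mouse 7. Arterial EC (Alpl and Stmn2) were at 3859, 4510, 1183 and 1628 CPM, the last from 2 cells. Capillary EC (Ndnf and Slc16a1) were at 2640, 2801 and 188 CPM in mice 4, 5 and 6, whereas the 14 capillary EC of mouse 7 held 3003 CPM (39 UMIs). The unnamed EC led by Slc6a6 and Sema3c had the highest level in mouse 4 with 6195 CPM, and 5036, 1040 and 2680 CPM in mice 5, 6 and 7. Tip EC (Apln and Trp53i11) were the lowest of the named kinds, with 816 and 929 CPM at P43, 1 UMI in the 63 cells of mouse 6 and none in the 6 cells of mouse 7. Tip EC numbered 35, 39, 63 and 6 cells, a larger part of EC in the P70 mice, and the part of this shift in the lower Cxcl12 of all EC was not tested.

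In Mural cells Cxcl12 was 379 CPM in mouse 4 (248 UMIs), 289 CPM in mouse 5 (282 UMIs), 107 CPM in mouse 6 (129 UMIs) and 21.4 CPM in mouse 7 (2 UMIs). It was lower at P70 with a log2 change of -1.63 ± 0.31 (edgeR, adjusted p = 0.0033; DESeq2, adjusted p = 0.25) and of -3.25 without the cells of the Dcn-led cluster. The fall was less steep than in EC by 1.37 ± 0.35 (edgeR interaction test, adjusted p = 0.0021). That difference did not pass the limit without mouse 4, without mouse 5 or without mouse 6, and its sign turned to -2.17 without mouse 6.

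OL-like cells kept a low level of Cxcl12, at 47.1, 34.6, 41.9 and 13.04 CPM in mice 4 to 7, and a log2 change of -0.61 ± 0.59 that did not pass the limit (edgeR, adjusted p = 0.91). None of the 11841 genes tested in OL-like cells passed it (0%), although 948 had an unadjusted p under 0.05, and DESeq2 called 197. With few EC in mouse 7, these low levels made up 78.7% of its Cxcl12 UMIs, against 10.8% and 2.49% in mice 4 and 5. The order EC above Mural above OL-like cells held in 4 of 4 mice, with log2 differences of 3.41 ± 1.59 and 1.78 ± 1.16 (SD, n = 4 mice; exact two-sided sign-flip permutation test, p = 0.12 for each, the smallest p that 4 mice allow). The scavenger receptor gene Ackr3 was in Mural cells at 412, 598, 51.2 and 139 CPM, lower at P70 (log2 change -2.76, edgeR, adjusted p = 2.0e-04). Mural cells held 56.6% and 75.0% of its UMIs in mice 4 and 5, whereas EC held nearly as many in mouse 6 (45.9% against 46.6%) and OL-like cells 67.1% in mouse 7. Cxcr4, the signaling receptor, was at 56.0, 112, 238 and 144 CPM in Myeloid cells.

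**Figure D3:**
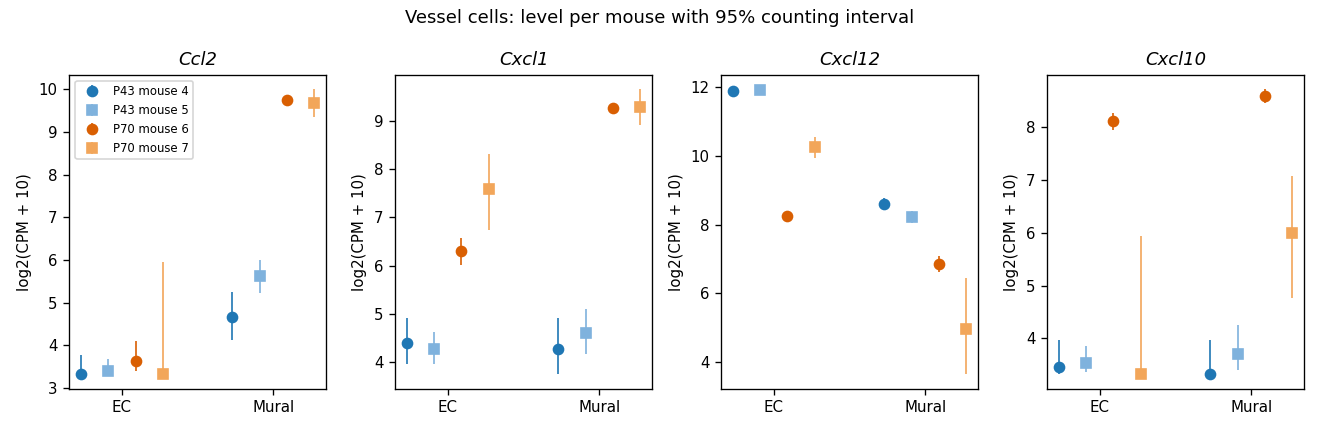
Level of 4 ligands as log2(CPM + 10) in EC and Mural cells, with 1 point per mouse and bars for the 95% exact Poisson interval of the UMI count (blue P43, orange P70). Ccl2 and Cxcl1 of Mural cells were about equally high in both P70 mice (848 and 814 CPM, 606 and 621 CPM), Cxcl12 was lower in both, and Cxcl10 was high mainly in mouse 6.

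Ccl5, a ligand of T cells, NK cells and macrophages, had its highest class level in T/NK cells. It measured there 3948 CPM in mouse 4 (696 UMIs), 1311 CPM in mouse 5 (627 UMIs), 4655 CPM in mouse 6 (1692 UMIs) and 3887 CPM in mouse 7 (99 UMIs). The groups overlapped, with a log2 change of 0.65 ± 0.41 (edgeR, adjusted p = 0.66). Of 4636 genes tested in T/NK cells, 0.475% were higher and 0.216% lower. Most of this RNA was in the NK cells (Gzma and Nkg7), at 7174, 4559, 10095 and 4639 CPM. The T cells led by Il17a and Cd163l1 had none in mice 4 and 7, 77.9 CPM in mouse 5 and 972 CPM in mouse 6.

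DC differed between the ages. Their Ccl5 was 481 CPM in mouse 4 (144 UMIs), 222 CPM in mouse 5 (172 UMIs), 4434 CPM in mouse 6 (13471 UMIs) and 2434 CPM in mouse 7 (493 UMIs). Both P70 mice lay above both P43 mice, with a log2 change of 3.33 ± 0.39 (edgeR, adjusted p = 0.0041). At 1000 UMIs, 37.4% (33.1 to 41.8%) and 25.8% (15.8 to 38.0%) of DC had a Ccl5 UMI at P70, against 6.25% (1.31 to 17.2%) and 13.6% (6.98 to 23.0%) at P43. OL-like cells of mouse 6 had one in 7.34% (4.97 to 10.4%), against at most 0.989% in the other mice, and 1 of these cells held 43 of their 310 Ccl5 UMIs. The shares in EC (5.19%) and Mural cells (5.29%) of mouse 6 lay within the same interval. The source of these UMIs was not tested.

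Migratory DC carried most of it. Those led by Fscn1 and Ccr7 (6, 6, 97 and 11 cells) were at 12000, 1442, 17972 and 10630 CPM, and those led by Timd4 and Sct (34, 8, 102 and 8 cells) at 1109, 398, 8461 and 4425 CPM. Ccr7, which guides mature DC to lymph nodes and was itself among the leading genes of the DC cluster, was at 90.2, 68.4, 730 and 597 CPM in DC, higher at P70 by a log2 change of 3.10 (edgeR, adjusted p = 0.0015). Whether more Fscn1-led cells or more Ccl5 per cell raised the class level was not tested.

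Myeloid cells showed Ccl5 levels of 712 CPM in mouse 4 (140 UMIs in 8 cells), 168 CPM in mouse 5 (78 UMIs in 5 cells), 2341 CPM in mouse 6 (10428 UMIs in 422 cells) and 1448 CPM in mouse 7 (554 UMIs in 27 cells). The groups did not overlap, but the log2 change of 2.23 ± 0.58 did not pass the limit (edgeR, adjusted p = 0.19). Monocytes had none in mice 4 and 5 (21 and 16 cells) and 3096 and 1359 CPM in mice 6 and 7. The unnamed Myeloid cells led by Saa3 and Ly6i were at 3158 CPM in mouse 4 (9 cells), 4882 CPM in mouse 6 and 7704 CPM in mouse 7, whereas the 3 cells of mouse 5 had no UMI. By library, T/NK cells gave 61.3% and 71.0% of the Ccl5 UMIs at P43 and 6.43% and 7.81% at P70, where DC gave 51.2% and 38.9% and Myeloid cells 39.6% and 43.7%. The receptor gene Ccr1 was at 91.6, 92.5, 178 and 225 CPM in Myeloid cells of mice 4 to 7.

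Cxcl16, a membrane-anchored ligand that also takes up oxidized lipids, was shared by Myeloid cells and DC. Myeloid cells had 346 CPM in mouse 4 (68 UMIs), 348 CPM in mouse 5 (162 UMIs), 939 CPM in mouse 6 (4182 UMIs) and 507 CPM in mouse 7 (194 UMIs). DC had 187, 226, 615 and 341 CPM. In each class both P70 mice lay above both P43 mice, yet the log2 changes of 1.14 ± 0.33 in Myeloid cells (edgeR, adjusted p = 0.23) and 1.22 ± 0.33 in DC (edgeR, adjusted p = 0.12) did not pass the limit. Myeloid cells exceeded DC in 4 of 4 mice, by a log2 difference of 0.65 ± 0.13 (SD), and DC exceeded Mural cells by 4.09 ± 0.35 (exact sign-flip permutation test, p = 0.12 for each). At 1000 UMIs, 26.3%, 23.8%, 53.6% and 33.3% of Myeloid cells had a Cxcl16 UMI, against at most 2.28% of OL-like cells. The Saa3-led Myeloid cells had the highest level in each mouse, at 983, 555, 1561 and 1296 CPM. Its receptor gene Cxcr6 was at 346, 615, 74.3 and 196 CPM in T/NK cells, and its change did not pass the limit.

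Cxcl9, an interferon-gamma-induced ligand of Cxcr3, separated the mice but not the ages. DC held it at a level of 1079 CPM in mouse 4 (323 UMIs), 38.7 CPM in mouse 5 (30 UMIs), 385 CPM in mouse 6 (1169 UMIs) and 74.1 CPM in mouse 7 (15 UMIs). Myeloid cells had 931, 19.4, 309 and 23.5 CPM. Mouse 4 and mouse 6 were thus high and mouse 5 and mouse 7 low in both classes. Y-linked genes split the mice in the same way, at 149, 0.37, 167 and 0 CPM in mice 4 to 7. This pattern and sex cannot be told apart. The log2 changes of -1.10 ± 1.06 in DC (edgeR, adjusted p = 0.77) and -1.29 ± 1.36 in Myeloid cells (edgeR, adjusted p = 0.82) were about as large as their SE. Without mouse 4 the change in DC turned to 2.62 (edgeR, adjusted p = 6.6e-05). DC exceeded Myeloid cells in 4 of 4 mice by 0.64 ± 0.51 (SD, exact sign-flip permutation test, p = 0.12). The Timd4-led migratory DC had the highest Cxcl9 among DC in mice 4, 5 and 7, with 3696, 249 and 434 CPM, whereas Xcr1-positive DC led in mouse 6 with 1253 CPM.

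In EC, Cxcl9 had 1 UMI in mouse 4, none in mouse 5, 87 UMIs in 12 cells of mouse 6 (71.99 CPM) and 1 UMI in mouse 7 (14.0 CPM). The pooled level was 203 times higher at P70 (exact interval of the counts 35.5 to 8111), and edgeR called it higher (adjusted p = 4.9e-06). Nearly all of these UMIs came from mouse 6. With so few UMIs at P43, Cxcl9 entered the test only through the P70 mice, so a call could only be higher. Without mouse 6 the gene fell below the expression filter. Tip EC gave 63 of these UMIs, from 5 cells. The 10 Myeloid marker genes summed to 269 CPM in EC of mouse 6, against 5.05, 2.04 and 0 CPM in EC of mice 4, 5 and 7, and EC of mouse 6 included 26 cells of a finer cluster led by Cd74 and H2-Aa. Without that cluster and the cluster of tumor cells, EC kept the call (edgeR, adjusted p = 1.9e-04). At 1000 UMIs, 3.30% (1.34 to 6.68%) of EC of mouse 6 had a Cxcl9 UMI, with an interval that overlaps that of its OL-like cells (1.27%, 0.412 to 2.93%).

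Cxcl10, induced by both interferon types and by NF-kappaB, was set by mouse 6. Myeloid cells held 346 CPM in mouse 4 (68 UMIs), 138 CPM in mouse 5 (64 UMIs), 1294 CPM in mouse 6 (5763 UMIs) and 94.1 CPM in mouse 7 (36 UMIs). DC held 444, 142, 882 and 4.94 CPM, the last from 1 UMI. The groups overlapped in both classes, and neither the log2 change of 1.66 ± 0.96 (edgeR, adjusted p = 0.60) nor that of 0.74 ± 1.06 (edgeR, adjusted p = 0.87) passed the limit. Without mouse 6 the change in DC was -5.75 (edgeR, adjusted p = 1.1e-15), resting on the single UMI of mouse 7. Monocytes of mouse 6 reached 4673 CPM (4977 UMIs in 162 of 228 cells), against 18.7, 88.5 and 275 CPM in mice 4, 5 and 7, and that cluster was led by the interferon genes Rsad2, Ifit1 and Ifit2 beside Vcan.

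Cxcl10 also appeared outside the Myeloid cells and DC. In Mural cells it had no UMI in mouse 4, 3 UMIs in mouse 5 (3.08 CPM), 456 UMIs in 51 cells of mouse 6 (377 CPM) and 5 UMIs in mouse 7 (53.5 CPM). Both P70 mice lay above both P43 mice, the pooled level was 192 times higher (65.3 to 935), and edgeR called it (adjusted p = 4.6e-05). Here too the gene entered the test only through the P70 mice, so a call could only be higher. In mouse 6, 1 cell gave 172 of the 456 UMIs (37.7%). Pericytes led by G0s2 gave 240 of the UMIs of mouse 6, from 12 cells. The 10 Myeloid markers summed to 12.2, 5.13, 145 and 0 CPM in Mural cells of mice 4 to 7, with only 37 cells in mouse 7, and their part in the Mural ligand levels was not tested. At 1000 UMIs, 13.5% (8.77 to 19.6%) of Mural cells of mouse 6 and 12.5% (2.66 to 32.4%) of mouse 7 had a Cxcl10 UMI, against 2.78% (1.40 to 4.93%) and 0% of their OL-like cells, a share that 0 of 2208 cells limits to 0.167%. In EC, Cxcl10 was at 1.01 CPM in mouse 4 and 1.53 CPM in mouse 5, 266 CPM in mouse 6 (322 UMIs, of which 283 lay in 9 tip EC) and 0 UMIs in mouse 7, and it was not tested there. The share of EC of mouse 6 with a Cxcl10 UMI at 1000 UMIs (3.77%, 1.64 to 7.30%) lay within the interval of its OL-like cells. The change in Myeloid cells was smaller than in EC for Cxcl9, Cxcl10, Ccl5 and Cxcl1 in the interaction test, where 4.46% of 9158 genes differed. The EC side of these differences rests on few UMIs for Cxcl9, Cxcl10 and Ccl5, most of them from mouse 6. For Cxcl1 the Myeloid side is the thinner one, with 3, 0, 2 and 0 UMIs in mice 4 to 7, against 11, 18, 83 and 13 in EC.

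T/NK cells had Cxcl10 levels of 28.4 CPM in mouse 4 (5 UMIs), 31.4 CPM in mouse 5 (15 UMIs), 242 CPM in mouse 6 (88 UMIs) and 196 CPM in mouse 7 (5 UMIs in 3 cells). Both P70 mice lay above P43, with a log2 change of 2.90 ± 0.40 (edgeR, adjusted p = 0.023; DESeq2, adjusted p = 0.11). Cxcl10 entered the edgeR test in T/NK cells only through the P70 mice, so a call could only be higher. At 1000 UMIs, 13.4% (7.33 to 21.8%) of T/NK cells of mouse 6 had a Cxcl10 UMI, above that of its OL-like cells. None of 12 T/NK cells of mouse 7 had one, which allows a share of up to 26.5%. Without mouse 6 the change was 2.50 and did not pass the limit (edgeR, adjusted p = 0.54). The receptor gene Cxcr3 was at 113, 77.4, 88.0 and 39.3 CPM in T/NK cells and Ifng at 397, 163, 77.03 and 39.3 CPM, in the order of mice 4 to 7.

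Ccl22 and Ccl17, the Ccr4 ligands, were DC genes. Ccl22 measured 36.7 CPM in DC of mouse 4 (11 UMIs), 427 CPM in mouse 5 (331 UMIs), 113 CPM in mouse 6 (344 UMIs) and 59.2 CPM in mouse 7 (12 UMIs). The groups overlapped, with a log2 change of -1.41 ± 0.77 (edgeR, adjusted p = 0.51). In mouse 5 the 331 UMIs came from 7 cells, 48.3% of them from 1 cell, whereas 78 DC of mouse 6 shared 344 UMIs. The Fscn1-led migratory DC held most of it in mice 5 and 6, at 8118 CPM in mouse 5 (304 UMIs in 5 cells), 470 CPM (202 UMIs) in mouse 6 and 114 CPM (4 UMIs) in mouse 7, with no UMI in mouse 4, whose 11 UMIs lay in the Timd4-led cells.

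Ccl17 was 46.8 CPM in DC of mouse 4 (14 UMIs), 670 CPM in mouse 5 (519 UMIs), 38.8 CPM in mouse 6 (118 UMIs) and 19.7 CPM in mouse 7 (4 UMIs). Mouse 5 stood apart from the other 3, and the log2 change of -3.48 ± 0.93 did not pass the limit (edgeR, adjusted p = 0.12). In mouse 5 the RNA was found both in the Fscn1-led migratory DC (6329 CPM, 237 UMIs in 4 cells) and in Cd209a-positive DC (489 CPM, 174 UMIs in 12 cells), with 1318 CPM in the 8 Timd4-led cells, and in mouse 6 Cd209a-positive DC held 80 UMIs. Among the 7 DC with Ccl22 in mouse 5, 6 also had Ccl17, against 18 of 78 in mouse 6. DC exceeded Myeloid cells in 4 of 4 mice, by 1.97 ± 0.48 for Ccl17 and 3.33 ± 1.09 for Ccl22 on the log2 scale (SD, exact sign-flip permutation test, p = 0.12 for each). The age change of Ccl17 differed between both classes by 5.05 ± 0.85, DC minus Myeloid (edgeR interaction test, adjusted p = 0.0091, where 0.758% of 6204 genes differed). This rests on mouse 5, whose Myeloid cells held 103 Ccl17 UMIs in 2 cells, 84.5% in 1 of them, and without mouse 5 it turned to -2.02. Ccr4 had at most 3 UMIs in T/NK cells of any mouse.

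**Figure D4:**
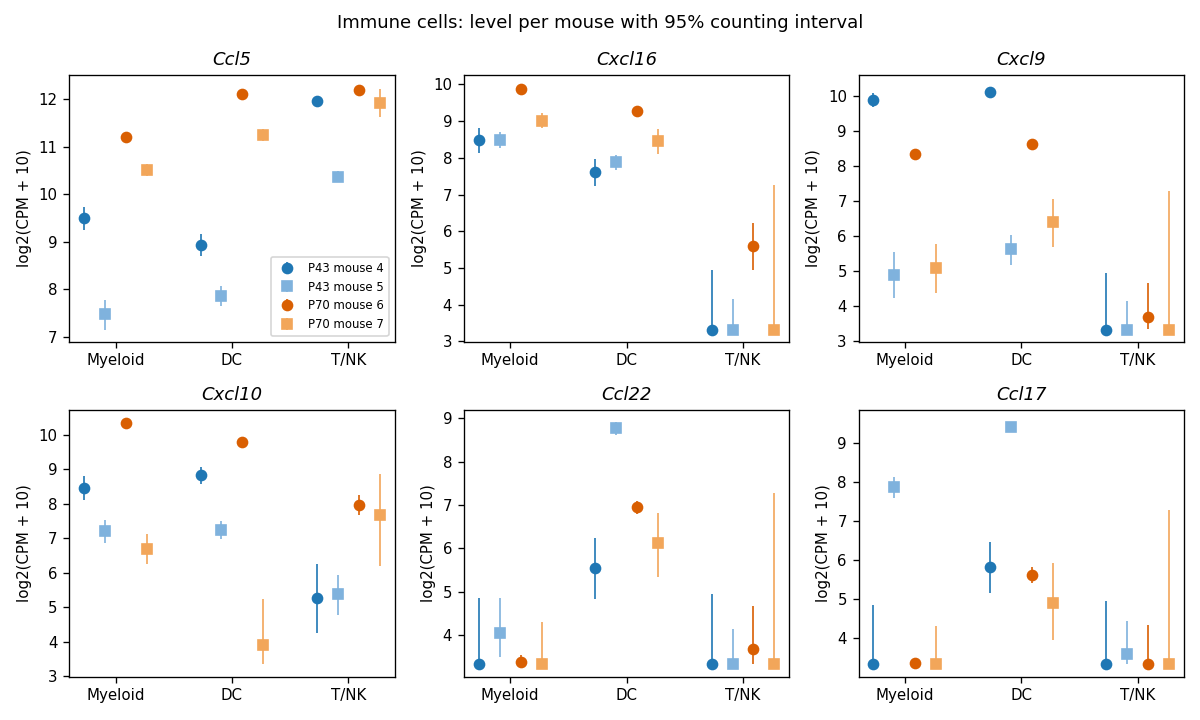
Level of 6 ligands as log2(CPM + 10) in Myeloid cells, DC and T/NK cells, with 1 point per mouse and bars for the 95% exact Poisson interval of the UMI count (blue P43, orange P70). Ccl5 of DC and Cxcl16 of Myeloid cells and DC were higher in both P70 mice, whereas Cxcl9 was high in mice 4 and 6, and Ccl17 and Ccl22 were highest in mouse 5.

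Over all classes, 27 pairs of a class and a ligand could be tested and 10 passed the limit. Mural cells had 3 ligands higher and 1 lower of 4 tested, where 10.7% of all genes tested were higher and 7.78% lower. EC had 2 higher and 1 lower of 3 (all genes, 6.21% and 3.68%). DC had 1 higher and 1 lower of 7 (all genes, 0.787% and 0.836%). T/NK cells had 1 higher of 2 (all genes, 0.475% higher and 0.216% lower). None of 6 passed in Myeloid cells and none of 5 in OL-like cells, where 3 and 0 had an unadjusted p under 0.05 (DESeq2 called 77 genes of all in Myeloid cells). A ligand entered the test only if its counts were high enough in the class, so the counts cover 3 to 7 of the 10 genes, and 2 in T/NK cells. Cxcl9 in EC and Cxcl10 in Mural and T/NK cells met this only through the P70 mice, so their calls could only be higher. Ccl2 in DC met it only through the P43 mice, so its call could only be lower. At P43, Cxcl1 in Mural cells met it in mouse 5 (14.4 CPM) but not in mouse 4 (9.16 CPM), so it too needed a P70 mouse. The calls of Ccl2 and Cxcl1 in Mural cells and of Cxcl1 in EC were kept in every alternative run and without any mouse.

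**Figure D5:**
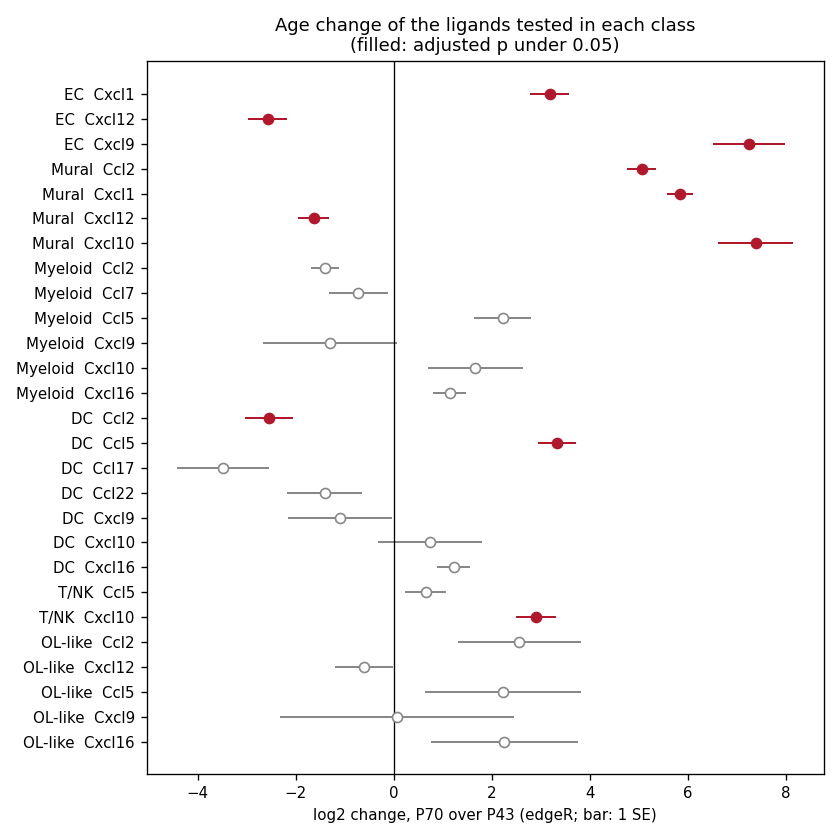
Log2 change from P43 to P70 of each ligand in each class in which it could be tested (x axis, edgeR on UMIs summed per mouse), with bars of 1 SE and filled points for an adjusted p under 0.05. The filled points are 10 of 27, with Ccl2, Cxcl1 and Cxcl10 of Mural cells between 5.06 and 7.38 and Cxcl12 negative in both vessel classes. The SE was computed from the test statistic and is not a spread between mice.

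Other genes of the pathway were counted from lists that were chosen with earlier results of these data known. Among all genes tested, 6.21% were higher and 3.68% lower at P70 in EC, and 10.7% and 7.78% in Mural cells. In DC these shares were 0.787% and 0.836%, in T/NK cells 0.475% and 0.216%, and in Myeloid cells 0.131% and 0.0935%. In EC, Cxcl2, Cxcr4 and Ackr2 entered the test only through the P70 mice, so their calls could only be higher. Of 23 further chemokine ligand genes counted, EC had 2 higher of 4 tested (the neutrophil attractant Cxcl2, log2 change 3.84, edgeR, adjusted p = 7.1e-05, and Ccl19, whose near-identical copies make its count uncertain) and none without mouse 6. Mural cells had 1 higher of 3, the eosinophil attractant Ccl11, at 74.8, 19.5, 711 and 364 CPM (log2 change 3.95, edgeR, adjusted p = 7.8e-05). DC had Ccl4 higher (144, 146, 738 and 405 CPM) and Ccl6 lower (247, 207, 35.9 and 83.9 CPM) of 5 tested. None of 7 passed in Myeloid cells and none of 3 each in T/NK and OL-like cells. Of the 23 chemokine receptor genes, EC had 2 higher of 4 (Cxcr4 and the decoy receptor Ackr2, both at most 69.9 CPM, and none without mouse 6), Mural cells 1 lower of 3 (Ackr3), and DC 2 higher and 1 lower of 9 (Ccr7, Cxcr4 and Ccr2), while none of 6 passed in Myeloid or T/NK cells and none of 4 in OL-like cells.

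Inflammatory response genes were higher at P70 in vessel cells, like Ccl2 and Cxcl1. Of all genes tested, 6.21% were higher and 3.68% lower in EC, and 10.7% and 7.78% in Mural cells. Of the NF-kappaB response list, 9 of 13 tested genes were higher and none lower in EC (median log2 change 1.71, all genes -0.04), and 7 of 12 were higher and none lower in Mural cells (median 2.23, all genes -0.01). In Mural cells these included the leukocyte adhesion gene Icam1 (1.53, 1.03, 79.3 and 64.2 CPM), the feedback inhibitor Nfkbia (142, 193, 557 and 1006 CPM) and the cytokine Il6 (no UMI in mice 4 and 5, 32.2 and 32.1 CPM in mice 6 and 7). Icam1 and Il6 in Mural cells and Ptgs2 in EC entered the test only through the P70 mice, so they could only be called higher. The counts of this list in vessel cells are in part fixed by that. EC shared Icam1 (31.3, 38.2, 180 and 154 CPM), Nfkbiz and Socs3. Without mouse 6 the counts were 4 of 12 in EC and 3 of 10 in Mural cells, and DESeq2 called 4 genes of the list in EC and 5 in Mural cells. In Myeloid cells 1 of 14 was higher (Il1b, 834, 886, 3318 and 2274 CPM), in DC Il1b was higher and Tnf lower of 13, and in T/NK cells Tnf was lower of 11. Among all genes, 0.131% were higher in Myeloid cells and 0.787% in DC, and 0.836% were lower in DC and 0.216% in T/NK cells. Tnf in T/NK cells entered the test only through the P43 mice, so its call could only be lower. None of 9 passed in OL-like cells.

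Of the interferon response list, 9 of 12 tested genes were higher in Mural cells (median log2 change 2.12), where 10.7% of all genes tested were higher. The 9 included Irf1 (13.7, 14.4, 86.8 and 107 CPM) and Irf7 (1.53, 7.18, 90.1 and 21.4 CPM). Without mouse 6 the count was 1 of 11, so this rise rests on that mouse for most genes. EC had 1 higher of 19 (Irf8) and T/NK cells 3 of 19 (Ifit3, Isg15 and Iigp1), with 0 in both without mouse 6. The shares of all genes higher were 6.21% in EC and 0.475% in T/NK cells. Irf7 and Ifit1 in Mural cells, Irf8 in EC and Ifit3 and Iigp1 in T/NK cells entered the test only through the P70 mice. Their calls could only be higher. None of 19 passed in Myeloid cells or in DC and none of 17 in OL-like cells. Leaving out 1 mouse changed these counts, to 12 higher in Myeloid cells without mouse 7, and in DC to 10 higher without mouse 4, 7 higher without mouse 7 and 4 lower without mouse 6. DESeq2 called 5 of this list in Mural cells and 6 in OL-like cells, all higher at P70, and none in EC, Myeloid cells, DC and T/NK cells.

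Immediate early genes, which respond within minutes to stimulation or to tissue digestion, moved with the vessel ligands as well. EC had 6 higher and 1 lower of 15 and Mural cells 7 higher and 1 lower of 16, with Nr4a1, Atf3, Fos and Junb among the higher ones in both. For all genes tested, the shares higher and lower were 6.21% and 3.68% in EC and 10.7% and 7.78% in Mural cells. The list summed to 6563, 9980, 8709 and 14753 CPM in EC and to 6676, 8168, 8082 and 13950 CPM in Mural cells of mice 4 to 7, highest in mouse 7 in each. The sums of mouse 6 lay within the range of the P43 mice, but genes called higher did not. In Mural cells of mice 4 to 7, Junb was at 365, 448, 1401 and 2259 CPM and Fos at 386, 488, 1020 and 1702 CPM. In DC (Ier3 and Egr2) and T/NK cells (Jun and Egr1), 2 genes were lower and none higher of 16 and 14. All genes tested were lower in 0.836% of cases in DC and 0.216% in T/NK cells. Egr2 in DC entered the test only through the P43 mice, so its call could only be lower. None of 16 passed in Myeloid or OL-like cells. The part of these genes in the ligand changes was not tested.

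In whole libraries, fewer cells of a type and less RNA per cell cannot be told apart. Over all kept cells, Cxcl12 was at 351, 738, 42.7 and 11.9 CPM in mice 4 to 7. Cxcl1 was at 2.09, 3.06, 52.3 and 5.16 CPM, and the ages did not overlap for either ligand. The share of all genes without overlap was not counted, and an exact permutation test of such a separation cannot go below 0.33. It is therefore a description only. The other 8 ligands overlapped, with mouse 6 the highest for 6 of them, such as Ccl5 (87.9, 81.9, 1661 and 32.0 CPM), Cxcl16 (12.2, 32.6, 399 and 7.38 CPM) and Cxcl10 (16.3, 18.5, 607 and 2.15 CPM). Immune cells made up a large part of that library, with 29.4% Myeloid cells and 18.3% DC, against 4.15% and 2.02% in mouse 7. Of all 13973 genes tested over whole libraries 0% passed the limit by edgeR, although 466 had an unadjusted p under 0.05, 2 of the 10 ligands among them (Cxcl12, log2 change -4.01, and Cxcl1, 3.80), and DESeq2 called 71 genes. Without mouse 6, 7 of the ligands were lower at P70 by edgeR (adjusted p from 9.1e-19 to 0.049), with log2 changes of -7.63 for Ccl17, -5.38 for Cxcl12, -5.21 for Ccl22, -5.08 for Cxcl9, -2.89 for Cxcl10, -1.45 for Cxcl16 and -1.29 for Ccl5. With all mice, the median of all genes was shifted by 0.14 on the log2 scale here, less than these changes.

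As a description of the pattern across cells, the genes most alike to each ligand were sought among 11691 genes over 33 sums of a class in a mouse, which share libraries and depth. Cxcl16 ran with the macrophage genes Aif1 (Pearson r = 0.97) and Il1b (0.97), Ccl5 with the leukocyte genes Epsti1 (0.95), Rgs1 (0.94) and Ptprc (0.93), and Ccl22 with Gpr141b (0.94). Cxcl12 was most alike to Tmtc1 (0.94) and Pcp4l1 (0.93), and Cxcl1 to Col18a1 (0.88) and Pgf (0.87). Cxcl10 ran with the interferon-induced genes Casp4 and Zbp1 (0.87 each), Cxcl9 with Ifi205 (0.89) and Ccl17 with Hepacam2 (0.92). Ccl7 (Rab3il1, 0.84) and Ccl2 (Axl, 0.78) had the least close partners.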

How the data were processed

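Single cells of 4 brain tumors, 1 library per mouse, were profiled by droplet-based 3′ RNA sequencing after papain digestion, red cell lysis and sorting for cells negative for the dead-cell dye 7-AAD. The authors aligned the reads with Cell Ranger 6.0.2 to mm10, extended by the luciferase and human MYCN sequences, and deposited filtered matrices of raw UMI counts for 21861 features, which are not normalized. Cell classes were rebuilt here from these counts and may differ from those of the study. The 10 genes, the marker lists and the pathway lists were chosen with earlier results of these data known.

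Cells with at least 200 genes, a mitochondrial share under 25% and at most 40000 UMIs were kept, and genes seen in at least 3 cells. Libraries were integrated with Seurat 5.3.0 in R 4.3.3 (2000 variable genes without any chemokine ligand, 30 principal components, resolution 0.5, giving 18 clusters). Scrublet (scanpy 1.11.5, Python 3.11.15) marked 0, 6, 0 and 32 cells in mice 4 to 7, under 0.5% of all cells, and was therefore taken not to have separated doublets. No cell was removed for it, and leaving out the top 5% of scores was an alternative. Clusters with at least 500 CPM of the reporter counted as tumor cells, a limit set after earlier levels were known. Others were named by at least 3 markers raised at least 2-fold and by their 10 leading genes, and vessel and immune cells were clustered again (20 components, resolution 1) with the same rule.

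UMI counts were summed per class and mouse and tested with edgeR 4.0.16 (quasi-likelihood test, TMM scaling, filterByExpr, Benjamini-Hochberg limit 0.05) over all genes, in classes with at least 20 cells in every mouse, and the class by age interaction with the mouse as a block. With 2 mice per age an exact permutation test cannot go below 0.33, and with 4 paired mice not below 0.12. Shares of cells were computed after thinning to 1000 UMIs, which left out 1246, 107, 343 and 93 shallower cells, with exact binomial intervals at 95%. In simulated counts with 200 genes changed 4-fold, the test recovered 90% in Mural cells, 81.5% in EC, 75.5% in T/NK cells, 72% in DC, 69.5% in OL-like cells, 53.5% in Myeloid cells and 0% over whole libraries, and the interaction test 53%, 21.5% and 20% for EC with Mural, Myeloid with DC and EC with Myeloid. Alternatives were DESeq2 1.42.0, scaling by total UMIs, no gene filter, other cell filters, resolution 1, ligands kept in clustering, 1 CPM in place of 10 CPM on the log2 scale, and leaving out each mouse.

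Named were the 10 genes throughout, the list genes past the limit (at most 5 per list and class by adjusted p) and the 3 genes most alike in pattern. Values of some genes that this rule names are not reported here. Intervals cover counting error only. B cells, neutrophils, neurons and the further tumor classes had under 20 cells in at least 1 mouse and were not tested.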

Additional observations from a re-analysis of the deposited data

Results flagged for a closer look

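The age change of a ligand differed between cell classes in 7 tests of the class by age interaction (edgeR with the mouse as a block). In Mural cells the log2 change of Cxcl1 exceeded that in EC by 2.68 (adjusted p = 6.2e-06) and that of Cxcl12 by 1.37 (adjusted p = 0.0021). In DC the change of Ccl17 exceeded that in Myeloid cells by 5.05 (adjusted p = 0.0091). The change in Myeloid cells minus that in EC was -6.17 for Cxcl1 (adjusted p = 0.012), -7.28 for Cxcl9 (adjusted p = 3.6e-15), -4.66 for Cxcl10 (adjusted p = 3.9e-09) and -3.36 for Ccl5 (adjusted p = 1.9e-04). Myeloid cells held only 3, 0, 2 and 0 Cxcl1 UMIs in mice 4 to 7. None of the 7 passed without mouse 6, where the differences of Cxcl12, Cxcl10 and Ccl5 changed sign, and that of Ccl17 changed sign without mouse 5.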

How the results depend on the processing

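With 2 mice per age, 1 library each and between 22 and 2253 cells per class and mouse, the depth limits what the tests can detect in the rarer classes. Mouse 7 held 36 EC, 37 Mural cells and 22 T/NK cells, and the 116 DC of mouse 4 had a median of 869 UMIs. No paired analysis was possible because the mice carry different numbers and the labels link no P43 mouse with a P70 mouse. The alternatives using only the largest cluster of a class, and EC, Mural cells and DC without finer clusters of other cell types, were chosen after seeing the data. Of 132 alternative values of the 10 called ligand changes, 121 kept direction and call, among them all those of Ccl2, Cxcl1 and Cxcl10 in Mural cells and of Cxcl1 and Cxcl9 in EC wherever a value was obtained. Cxcl9 in EC gave no value without mouse 6 or without the top 5% of Scrublet scores and Cxcl10 in Mural cells none without mouse 6, since both fell below the gene filter, and neither did 7 values in OL-like cells. The cause of the changes below was not tested.

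With DESeq2 the log2 changes of Cxcl12 were -2.40 in EC and -2.09 in Mural cells and that of Cxcl10 in T/NK cells was 2.78, none past the limit, and DESeq2 called 224 genes in EC (edgeR 876), 557 in Mural cells (1596), 77 in Myeloid cells (12), 11 in T/NK cells (32), 197 in OL-like cells (0) and 71 over whole libraries (0). Scaling by total UMIs moved the median log2 change of all genes from -0.01 to -0.22 in Mural cells, from -0.04 to -0.14 in EC and from 0.14 to -0.08 over whole libraries. Ccl2 in DC did not pass with total UMIs (-2.56), a limit of 60000 UMIs (-2.24), a mitochondrial share under 10% (-2.36), resolution 1 (-2.38), ligands kept in clustering (-1.71) or only the largest cluster (-2.49), with adjusted p over all 10 alternatives from 1.3e-06 to 0.13 (edgeR or DESeq2). Ccl5 in DC did not pass with 60000 UMIs (2.99), where 16 genes were called in DC, against 99 in the reported test and 222 without the top 5% of Scrublet scores. Without a gene filter, 284 genes were called in Myeloid cells, 370 in DC, 119 in T/NK cells and 90 in OL-like cells. Adding 1 CPM in place of 10, the level differences were 3.62 for Ccl7 (Myeloid minus Mural), 4.14 for Ccl17 and 5.82 for Ccl22 (DC minus Myeloid). Without thinning, the mean share of Myeloid cells with a UMI was 25.6% for Ccl2, 5.21% for Ccl7 and 57.7% for Cxcl16 (53.0% at 2000 UMIs), and that of DC 10.3% for Ccl17 and 9.08% for Ccl22.

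Leaving out each mouse in turn, where the lone mouse of an age is assumed to vary like the other age, the genes called ranged from 348 to 1572 in EC, 727 to 2308 in Mural cells, 3 to 431 in Myeloid cells, 142 to 372 in DC, 0 to 202 in T/NK cells and 0 to 2138 over whole libraries. Of the called ligands, Cxcl10 in T/NK cells ranged from 2.50 (without mouse 6, not past the limit) to 3.01. Of the ligands that were not called, the log2 change ranged from -1.59 to 0.39 for Ccl7, -4.13 to 3.23 for Cxcl9 and -1.21 to 2.59 for Cxcl10 in Myeloid cells, from -2.25 to 1.39 for Ccl22, -2.83 to 2.62 for Cxcl9 and -5.75 to 1.70 for Cxcl10 in DC, and in OL-like cells from -1.72 to 0.06 for Cxcl12, -1.10 to 5.35 for Ccl5, -7.30 to 1.35 for Cxcl9 and -0.90 to 4.19 for Cxcl16. Over whole libraries the ranges were -2.04 to 3.32 for Ccl7, -1.29 to 4.61 for Ccl5, -7.63 to 1.64 for Ccl17, -5.21 to 3.43 for Ccl22, -5.08 to 4.93 for Cxcl9, -2.89 to 5.46 for Cxcl10 and -1.45 to 4.51 for Cxcl16, with all these negative ends reached without mouse 6. Genes whose age change differed between classes numbered 140 to 1216 for Mural minus EC, 53 to 108 for DC minus Myeloid and 84 to 516 for Myeloid minus EC. The differences ranged from 1.57 to 3.14 (Cxcl1) and -2.17 to 2.10 (Cxcl12) for Mural minus EC, -2.02 to 5.30 (Ccl17) for DC minus Myeloid, and -9.03 to -0.49 (Cxcl1), -5.96 to 5.13 (Ccl5), -8.21 to -5.36 (Cxcl9) and -5.69 to 1.97 (Cxcl10) for Myeloid minus EC.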

Other observations

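Besides the tested classes, smaller ones held some ligands. B cells of mouse 6 (166 cells) held Ccl5 at 676 CPM (116 UMIs in 45 cells) and Cxcl16 at 612 CPM (105 UMIs in 64 cells), and neutrophils of that mouse (98 cells) held Cxcl10 at 275 CPM (141 UMIs in 13 cells) and Ccl2 at 44.8 CPM (23 UMIs in 8 cells). The 42 neurons of mouse 4 held Cxcl12 at 391 CPM (18 UMIs in 16 cells). The 192 AC-like tumor cells of mouse 7 held Cxcl10 at 23.2 CPM (31 UMIs in 17 cells), which was 36.5% of the Cxcl10 UMIs of that library, while the 587 NB-like cells held Ccl2 at 4.20 CPM and Cxcl1 at 0.93 CPM. Each of these classes had under 20 cells in at least 1 mouse and was not compared between the ages.

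In mouse 6, DC with UMIs of both Cxcl9 and Cxcl10 numbered 51, those with Cxcl9 alone 39, those with Cxcl10 alone 54 and those with neither 357, with median depths of 6518, 7575, 5832 and 5842 UMIs.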
